A study of Mus musculus with 6 samples.

Results

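The 35 genes described here encode the core autophagy machinery of the mouse, the cargo receptor p62 (Sqstm1) and its relatives, and regulators and membrane proteins of the lysosome. They were chosen by name, as genes of autophagy initiation, conjugation, the LC3 family, cargo receptors and lysosomal control. All 35 are among the 54446 genes of the deposited count table, and all 35 were among the 15068 genes expressed highly enough to test. Expression was measured by RNA sequencing in intestinal epithelium from 6 mice, 3 knockout and 3 control. Knockout mice carried Prkci flox/flox and Villin-CRE, a recombinase driven by the promoter of an intestinal epithelial gene, which deletes the floxed Prkci in these cells. Control mice carried Prkci flox/flox without Villin-CRE, so an effect of the recombinase itself and one of losing Prkci cannot be told apart. Mice of both genotypes were co-housed and were killed at 3 to 4 months of age; no strain is given. Epithelial cells were released from the washed gut lumen with EDTA (30 mM) and DTT (5 mM). The sample titles name jejunum, whereas the series text describes segments of 10 cm of jejunum-ileum.

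Autophagy encloses cytoplasm in a double membrane, the autophagosome, which then fuses with a lysosome where its content is degraded. A kinase complex around ULK1 starts the process, a lipid kinase complex around Beclin 1 marks the membrane, and a conjugation system related to that of ubiquitin attaches LC3 and GABARAP proteins to it. Receptors such as p62 link ubiquitinated cargo to LC3, and p62 also binds the atypical protein kinases C, one of which is encoded by Prkci. In the small intestine autophagy is known for its part in Paneth cell granule secretion and in the defence of the epithelium against bacteria.

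The targeted gene was read first. Prkci had normalised levels of 21.5, 14.6 and 21.4 CPM in the 3 knockout libraries, in the order of their replicate numbers, and of 44.6, 46.9 and 44.0 CPM in the 3 controls. CPM are counts per 1e+06 counts of a library after TMM scaling, and all values by library keep this order. All 3 knockout libraries were below all 3 controls, at a log2 fold change of −1.24 (SE 0.17), with an adjusted p of 0.0719 in edgeR's quasi-likelihood test and 9.92e-08 in DESeq2. Leaving out knockout replicate 1 gave an adjusted p of 0.00345 and the replicate block 0.183, and over all settings tried edgeR's ranged from 0.00345 to 0.399.

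Library totals were 18972906 to 26687856 counts in knockout and 22453798 to 23008047 in control libraries. Enterocyte markers were present in every library, with 34833 to 58091 CPM summed over 14 genes in knockout and 38523 to 42876 CPM in control libraries. T cell markers summed to 352 to 866 CPM in knockout and 174 to 297 CPM in control libraries, with 7 of 10 markers higher in every knockout than in every control library. Paneth cell markers summed to 748 to 1345 CPM in knockout and 1489 to 5365 CPM in control libraries. Macrophage markers summed to 170 to 221 CPM in knockout and 126 to 179 CPM in control libraries, with 3 of 10 markers higher in every knockout. The macrophage sum rested mostly on its most abundant gene, at a mean of 159 CPM against a median of 1.58 CPM over 9 tested genes. All 9 had estimates above 0, with a median log2 fold change of 1.24. B and plasma cell markers summed to 147 to 324 CPM in knockout and 30.1 to 130 CPM in control libraries. Smooth muscle markers summed to 266 to 336 CPM in knockout and 245 to 262 CPM in control libraries. The smooth muscle sum rested mostly on its most abundant gene, at a mean of 262 CPM against a median of 3.07 CPM over 5 tested genes. All 5 had estimates above 0 (median log2 fold change 3.49). Their mean log2 CPM stood at 2.78, −0.61 and 3.64 in knockout replicates 1 to 3, relative to the mean of the controls. Fibroblast markers summed to 12.9 to 52.6 CPM in knockout and 5.46 to 17.5 CPM in control libraries. Vim, a mesenchymal gene, stood at 3.92 to 5.62 per 1000 counts of the epithelial gene Krt8 in knockout and at 2.48 to 2.75 in control libraries, and no marker in these lists was at 0 in every library. Ribosomal RNA loci took 5.41 ± 0.51% of counts in knockout and 2.55 ± 0.38% in control libraries (SD, n = 3 each). Xist and Ddx3y contradicted the sex written in the series text for 3 libraries; by these genes knockout replicates 2 and 3 and control replicate 3 came from females. Sex was fitted as a term among the alternatives; the part of the other differences in the results below was not tested. In bulk tissue, fewer cells of a type and less RNA per cell cannot be told apart.

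None of the 35 autophagy genes passed the threshold (adjusted p 0.05, edgeR's quasi-likelihood test), where 0.0597% of all tested genes did, 9 in number. With the replicate number as a block, 0 genes passed in all. DESeq2 also called 0 of the 35, against 5.55% of all genes tested here. At an unadjusted p under 0.05 in edgeR, 1 of the 35 was lower in knockouts and 0 were higher, against 16.4% of all genes in either direction (7.09% lower and 9.32% higher). The estimates were close to 0, with log2 fold changes from −0.54 to 0.51. Of the 35, 0 exceeded 1.5-fold in either direction, against 19.4% of all genes and 14.3% of those in the same range of expression. The 95% interval lay inside 1.5-fold for 27 of the 35 genes (77.1%), against 34.0% of all genes and 43.4% of the 11614 genes in the same range of expression. Spread between libraries of 1 genotype was also smaller, with a median SD of 0.15 on the log2 scale, against 0.26 for all genes and 0.22 in the same range of expression. That range ran from 1.90 to 531 CPM and was not matched gene by gene. Median expression was 33.4 CPM for the 35 genes, 20.5 CPM within the range and 11.8 CPM for all genes. The part of expression level in these differences was not tested. By sign alone, 26 of the 35 estimates were below 0 and 9 above, where 49.3% of all genes had estimates below 0. The median log2 fold change was −0.15, against 0.01 over all genes. In 10 of the 35 genes every knockout library was below every control library, against 11.7% of all genes, and in 1 every knockout was above, against 10% of all genes.

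**Figure D1:**
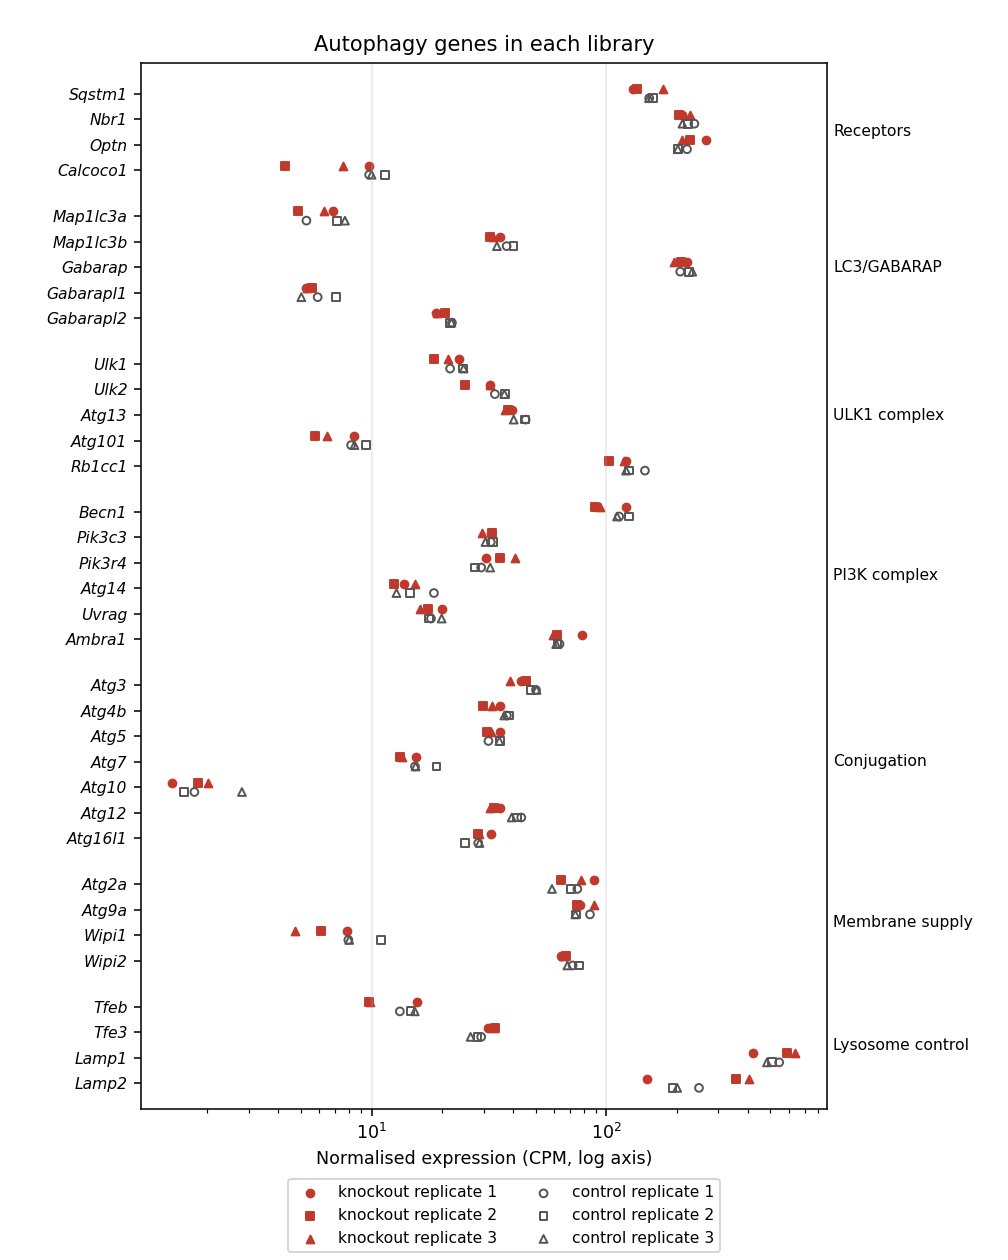
Expression of the 35 autophagy genes in each library, in CPM on a log axis, with knockout libraries as filled and control libraries as open symbols, 1 symbol shape per replicate number. Most genes show knockout and control symbols close together; Lamp2 spans 149 to 407 CPM among the knockouts.

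**Figure D2:**
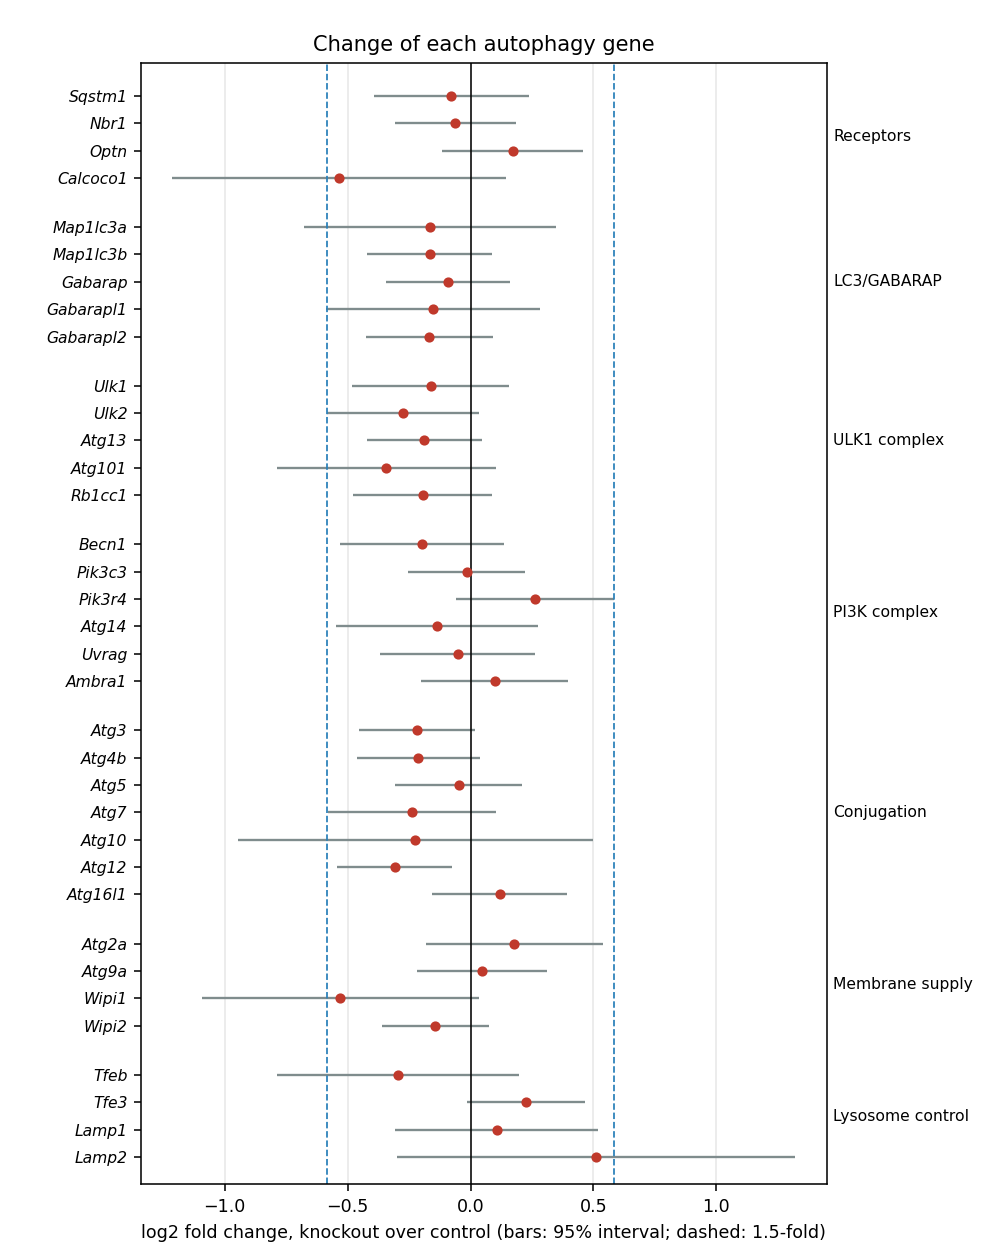
Log2 fold change (knockout over control) of each autophagy gene with its 95% interval from edgeR; dashed lines mark 1.5-fold. The interval of Atg12 alone excludes 0, at −0.54 to −0.08, before adjustment over all genes.

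**Figure D3:**
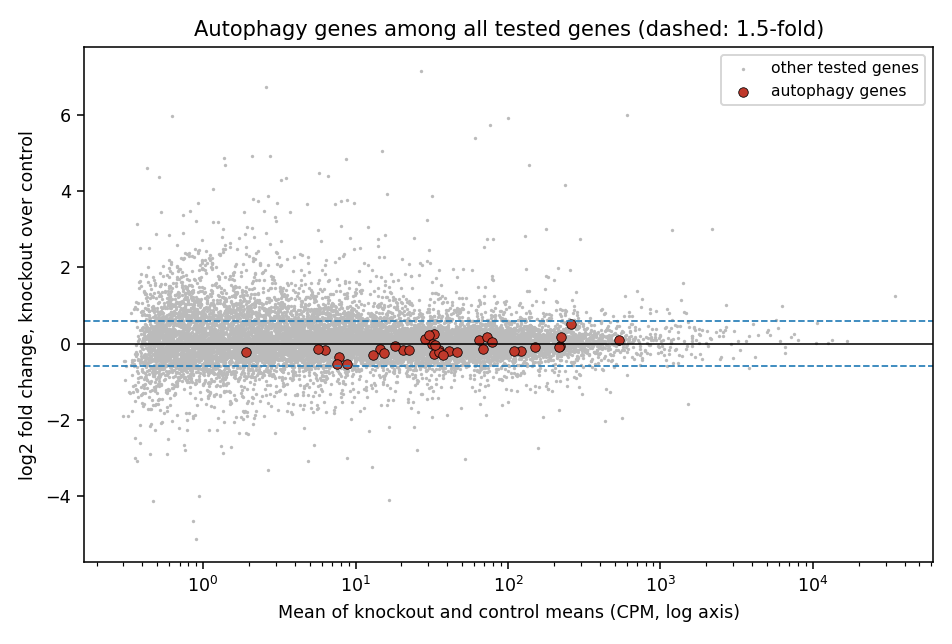
Log2 fold change (knockout over control) against mean expression in CPM on a log axis, for the 35 autophagy genes (red) and the other tested genes (grey), with dashed lines at 1.5-fold. All 35 lie between the dashed lines, which 19.4% of all tested genes and 14.3% of those in the same range of expression exceed.

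Cargo receptors bind ubiquitinated or other cargo and the LC3 proteins on the growing membrane. Sqstm1 (ENSMUSG00000015837.15; mm10 chr11:50199366-50210827), which encodes p62, had 130, 135 and 174 CPM in knockout and 152, 158 and 152 CPM in control libraries. Knockout replicates 1 and 2 were below all controls and knockout replicate 3 was above all of them. The means were 146 ± 24.2 CPM in knockouts and 154 ± 3.70 CPM in controls (SD, n = 3 each), a log2 fold change of −0.08 (SE 0.13) with a 95% interval of −0.39 to 0.24 and an edgeR adjusted p of 0.796. An exon of the neighbouring gene Mrnip covers 17.3% of the exon length of Sqstm1, so reads there may be shared if strand was not used in counting. Optn, which encodes the receptor optineurin, had 265, 227 and 211 CPM in knockout and 221, 202 and 202 CPM in control libraries. The genotypes overlapped, at a log2 fold change of 0.17 (SE 0.12, adjusted p 0.504). Nbr1, a receptor built like p62, had means of 214 ± 12.2 CPM in knockouts and 224 ± 13.0 CPM in controls (log2 fold change −0.06, adjusted p 0.791). Calcoco1, a receptor for endoplasmic reticulum and Golgi cargo, had 9.71, 4.27 and 7.57 CPM in knockout and 9.77, 11.4 and 10.0 CPM in control libraries. Each knockout was below each control, replicate 1 by little, and the log2 fold change of −0.54 (SE 0.29) had an adjusted p of 0.397.

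LC3 and GABARAP proteins are the ubiquitin-like tags that coat the autophagosome. All 5 of these genes had estimates below 0, between −0.17 and −0.09 on the log2 scale, and none passed the test. Over all genes, 49.3% of estimates were below 0. Gabarap had 221, 209 and 194 CPM in knockout and 206, 226 and 232 CPM in control libraries, with overlapping genotypes (log2 fold change −0.09, SE 0.11, adjusted p 0.686). Gabarapl2 had 18.8, 20.6 and 18.9 CPM in knockout and 22.0, 21.5 and 21.9 CPM in control libraries. All 3 knockouts were lower, by a narrow margin (log2 fold change −0.17, SE 0.11, adjusted p 0.473). Gabarapl2 has 3 processed pseudogenes with sequence of at least 95% identity, so part of its reads may have been lost or misplaced. Map1lc3b, the LC3 form most used as an autophagosome marker, had means of 33.3 ± 1.65 CPM in knockouts and 37.3 ± 3.02 CPM in controls (log2 fold change −0.17, adjusted p 0.470).

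Autophagy is initiated by ULK1 or ULK2 in a complex with ATG13, ATG101 and RB1CC1 (FIP200). All 5 genes of this complex had estimates below 0, against 49.3% of all genes. In 3 of them no knockout library reached a control, against 11.7% of all genes. Ulk2 had 31.9, 25.0 and 31.9 CPM in knockout and 33.5, 36.9 and 36.8 CPM in control libraries (log2 fold change −0.27, SE 0.13, adjusted p 0.351). Atg13 had 39.6, 38.2 and 36.9 CPM in knockout and 45.3, 45.1 and 40.3 CPM in control libraries (log2 fold change −0.19, SE 0.10, adjusted p 0.388). Rb1cc1, the scaffold of the complex, had 121, 103 and 119 CPM in knockout and 146, 125 and 121 CPM in control libraries. For Rb1cc1 the highest knockout and lowest control nearly met, and the adjusted p was 0.448 (log2 fold change −0.20, SE 0.12). Ulk1 itself had overlapping genotypes, with means of 21.1 ± 2.56 CPM in knockouts and 23.6 ± 1.74 CPM in controls, and Atg101 had 6.88 ± 1.40 CPM in knockouts and 8.71 ± 0.70 CPM in controls.

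The lipid kinase Vps34 (Pik3c3) works with Vps15 (Pik3r4), Beclin 1 (Becn1) and either Atg14 or Uvrag, and Ambra1 regulates the complex. This class was mixed, with 2 of 6 estimates above and 4 below 0, all with overlapping genotypes. Becn1 had 122, 89.4 and 93.7 CPM in knockout and 113, 125 and 111 CPM in control libraries. Knockout replicate 1 lay within the controls and the other knockouts lay below them, at a log2 fold change of −0.20 (SE 0.14, adjusted p 0.505). Exons of Cntd1 cover 43.9% of the exon length of Becn1. Pik3c3 had the estimate nearest 0 of all 35 genes, with means of 31.5 ± 1.59 CPM in knockouts and 31.9 ± 1.16 CPM in controls (log2 fold change −0.02). Pik3r4 had the highest estimate of the class, at 0.26 (SE 0.14, adjusted p 0.381).

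The conjugation genes attach ATG12 to ATG5 and LC3 to lipid. In this class 6 of 7 estimates were below 0, against 49.3% of all genes. In 3 genes every knockout was below every control, against 11.7% of all genes. Atg12 (ENSMUSG00000032905.4; mm10 chr18:46732417-46741579), the ubiquitin-like protein joined to ATG5, had 35.3, 33.4 and 32.0 CPM in knockout and 43.4, 41.7 and 39.6 CPM in control libraries. The genotypes were apart by more than the spread within either, with means of 33.6 ± 1.62 CPM in knockouts and 41.6 ± 1.94 CPM in controls (SD, n = 3 each). The log2 fold change was −0.31 (SE 0.10), with the smallest p of the 35 genes, 0.0163 unadjusted and 0.208 after edgeR's adjustment over all genes. Atg3, which transfers LC3 to lipid, had 43.2, 45.3 and 39.0 CPM in knockout and 50.2, 47.6 and 50.4 CPM in control libraries (log2 fold change −0.22, SE 0.10, adjusted p 0.335). Atg4b, the protease that prepares LC3, had 35.2, 29.7 and 32.7 CPM in knockout and 37.7, 38.5 and 36.8 CPM in control libraries (log2 fold change −0.21, SE 0.11, adjusted p 0.371). All knockouts of both genes were below all controls. Atg5, Atg7, Atg10 and Atg16l1 had overlapping genotypes, with estimates between −0.24 and 0.12. Atg16l1, known from a human variant linked to Crohn's disease, was the only one of the class with an estimate above 0 (29.8 ± 2.21 CPM in knockouts and 27.4 ± 2.12 CPM in controls).

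Membrane is supplied to the growing autophagosome by the lipid transporter ATG2A and the scramblase ATG9A, and the WIPI proteins read the lipid mark. Atg9a had 77.1, 75.3 and 88.7 CPM in knockout and 85.2, 74.4 and 73.8 CPM in control libraries. These overlapped, and the log2 fold change of 0.05 (SE 0.11, adjusted p 0.857) turned to −0.06 when libraries were scaled to their totals. Wipi1 had 7.89, 6.10 and 4.73 CPM in knockout and 7.96, 11.0 and 8.04 CPM in control libraries. No knockout reached a control, although replicate 1 came close, at a log2 fold change of −0.53 (SE 0.24, adjusted p 0.327). Wipi2, the form that recruits ATG16L1, had 63.9, 67.1 and 65.4 CPM in knockout and 71.8, 76.7 and 68.3 CPM in control libraries, also without overlap (log2 fold change −0.14, SE 0.09, adjusted p 0.467). Atg2a overlapped (log2 fold change 0.18, adjusted p 0.579).

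TFEB and TFE3 are related transcription factors that switch on lysosomal and autophagy genes, and LAMP1 and LAMP2 are the main glycoproteins of the lysosomal membrane. Tfe3 was the only one of the 35 genes with every knockout above every control, with 31.5, 33.7 and 33.1 CPM in knockout and 29.3, 28.3 and 26.4 CPM in control libraries. The log2 difference of 0.23 (SE 0.10) did not pass edgeR's test (adjusted p 0.330). Tfeb had 15.6, 9.76 and 9.89 CPM in knockout and 13.2, 14.7 and 15.3 CPM in control libraries. Knockout replicate 1 was the highest of the 6 libraries and the other 2 knockouts were the lowest (log2 fold change −0.29, SE 0.21, adjusted p 0.504). Lamp1 (mm10 chr8:13159161-13175338) had 422, 591 and 639 CPM in knockout and 545, 506 and 483 CPM in control libraries. Here knockout replicate 1 was the lowest of the 6 libraries and knockout replicates 2 and 3 were the highest (log2 fold change 0.11, SE 0.17, adjusted p 0.782), and the estimate was −0.02 when libraries were scaled to their totals. Lamp2 (mm10 chrX:38401357-38456454) had the same order of knockouts on a wider scale, with 149, 356 and 407 CPM in knockout and 248, 191 and 200 CPM in control libraries. Its log2 fold change of 0.51 (SE 0.34) had the widest interval of the 35 genes, −0.30 to 1.32, and an adjusted p of 0.483. With sex by Xist and Ddx3y as a term, the Lamp2 estimate was 0.19 (SE 0.36, adjusted p 0.867). Tfeb and Lamp2 were given by library after their values were seen.

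TFEB and TFE3 bind a palindrome with CACGTG at its core, so the promoters of the 35 genes were searched for these letters in the RefSeq sequences of GRCm38.p6, from 250 bases before to 50 bases after each start. Promoters were found for 29 of the 35 genes, 33 in number. The full palindrome, CACGTG with GT before and AC after it, was in 0 of them, against 0.326% of all 32851 promoters, and CACGTG was in 15.2% of them, against 7.15% of all promoters. The 5 genes with CACGTG were Atg14, Atg3, Atg5, Atg7 and Lamp1. TGACNNNGC, the core of the element bound by NRF2, which p62 is known to release from its inhibitor, was in 9.09% of the 33 promoters and 12.4% of all, and these belonged to Atg13, Map1lc3b and Ulk2. Each motif was searched on both strands. The promoters of Lamp1 (chr8:13158911-13159210, plus strand) and Atg3 (chr16:45158579-45158878, plus strand) are shown because they hold more than 1 CACGTG, in capitals, and because these genes differ in the sign of their estimates. A match is a description of the letters and no measure of binding.
Lamp1: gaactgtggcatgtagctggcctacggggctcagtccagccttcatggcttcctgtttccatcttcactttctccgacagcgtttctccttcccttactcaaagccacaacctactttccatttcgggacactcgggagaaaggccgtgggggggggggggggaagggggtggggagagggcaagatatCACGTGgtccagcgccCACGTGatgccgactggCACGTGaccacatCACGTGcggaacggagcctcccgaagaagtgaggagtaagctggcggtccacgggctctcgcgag
Atg3: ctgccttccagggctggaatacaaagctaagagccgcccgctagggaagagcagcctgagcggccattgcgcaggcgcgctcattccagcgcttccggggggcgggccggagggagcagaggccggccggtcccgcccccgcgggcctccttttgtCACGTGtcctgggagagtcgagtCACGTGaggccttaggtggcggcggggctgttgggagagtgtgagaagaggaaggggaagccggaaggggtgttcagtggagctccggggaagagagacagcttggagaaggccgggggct

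Levels of different genes were compared per kilobase of exon, for the 33 genes whose identifiers matched the GENCODE M21 annotation; Atg12 and Atg2a did not match. Lamp1 was highest, at 206 ± 42.6 CPM per kilobase in knockouts and 191 ± 11.6 in controls, followed by Gabarap at 113 ± 7.40 in knockouts and 120 ± 7.30 in controls. Optn had 62.4 ± 7.46 CPM per kilobase in knockouts and 55.4 ± 2.91 in controls, and Sqstm1 had 43.5 ± 7.22 in knockouts and 46.0 ± 1.10 in controls. Nbr1 and Lamp2 came next, and overlapped each other in knockouts (31.2 ± 1.78 for Nbr1 and 31.8 ± 14.3 for Lamp2). Within the LC3 and GABARAP family Gabarap stood far above Gabarapl2, Map1lc3a, Map1lc3b and Gabarapl1, whose levels lay between 2.68 and 8.35 CPM per kilobase in knockouts. Exon length was the union of all annotated exons of a gene, whether or not they were used in these cells. It was 7.52 kilobases for Map1lc3b and 1.18 to 2.33 for the rest of the family. The order of genes depends on this choice, and no other length was tried. Atg10, the enzyme that joins ATG12 to ATG5, was lowest, at 1.02 CPM per kilobase in knockouts and 1.19 in controls, and rested on 28 to 67 counts per library.

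The mean log2 CPM over the 35 genes was 5.14 ± 0.07 in knockouts and 5.24 ± 0.02 in controls (SD, n = 3 each), a difference of −0.11 against 0.03 for all tested genes. Relative to the mean of the controls, knockout replicates 1 to 3 stood at −0.05, −0.18 and −0.09, and the controls between −0.02 and 0.02. No test was made of this mean, since the genes were chosen as a group. By class, the ULK1 complex had the lowest mean, at −0.09, −0.40 and −0.22 in knockout replicates 1 to 3, and the conjugation genes stood at −0.11, −0.19 and −0.17. The lysosomal control class behaved differently among the knockouts, at −0.12 in replicate 1 and at 0.17 and 0.24 in replicates 2 and 3. With libraries scaled to their totals, which moved the median over all genes to −0.10, the difference over the 35 genes was −0.22.

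Knockout replicate 1 stood apart from the other knockouts for several of these genes. Without it, edgeR called 17.5% of 15470 tested genes and 4 of the 35 autophagy genes, 1 higher (10% of all genes were called higher) and 3 lower (7.44% were called lower). Lamp2 was higher in the remaining knockouts at a log2 fold change of 0.84 (SE 0.14, adjusted p 0.00891). Tfeb was lower, at −0.55 (SE 0.14, adjusted p 0.0343), as were Becn1 at −0.35 (SE 0.09, adjusted p 0.0423) and Atg12 at −0.35 (SE 0.10, adjusted p 0.0477). Over all settings tried, the adjusted p ranged from 0.00891 to 0.867 for Lamp2, 0.0343 to 0.826 for Tfeb, 0.0423 to 0.846 for Becn1 and 0.0477 to 0.497 for Atg12, and without any 1 of the other 5 libraries 0 of the 35 genes were called. Both remaining knockouts were female by Xist, against 1 of 3 controls, and the part of sex in these calls was not tested.

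Other genes of the pathway, listed by role outside the 35, gave 0 calls in edgeR's test with all 6 libraries. Of 32 lysosomal enzyme, pump and membrane genes that passed the filter out of 34 listed, 4 were higher and 2 lower in knockouts at an unadjusted p under 0.05, against 9.32% higher and 7.09% lower over all genes. Their median log2 fold change was 0.23, and it was 0.40 without knockout replicate 1, 0.12 without knockout replicate 3, 0.12 with library totals and 0.12 with sex by Xist and Ddx3y as a term. Gusb, which encodes the lysosomal enzyme beta-glucuronidase, had 12.3, 80.3 and 58.0 CPM in knockout and 12.2, 11.2 and 11.4 CPM in control libraries. Knockout replicates 2 and 3 were far above the controls and replicate 1 was barely so (log2 fold change 2.11, edgeR adjusted p 0.175, DESeq2 adjusted p 0.00313). Ctsb, the protease cathepsin B, had 306, 630 and 597 CPM in knockout and 416, 368 and 363 CPM in control libraries (log2 fold change 0.42, adjusted p 0.460). As for Lamp1 and Lamp2, replicate 1 was the lowest of the 6 libraries and replicates 2 and 3 were the highest. As a list, these genes stood at −0.20, 0.52 and 0.46 in knockout replicates 1 to 3 relative to the mean of the controls, and without replicate 1 edgeR called 15 of 33 higher and 0 lower, where 10% of all genes were called higher and 7.44% lower. As above, both knockouts left in that comparison were female by Xist.

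Genes of nutrient sensing by mTORC1 and AMPK, the kinases that hold back and start autophagy, had 8 of 29 lower and 0 higher in knockouts at an unadjusted p under 0.05, against 7.09% lower and 9.32% higher over all genes. Rragd, a GTPase that recruits mTORC1 to the lysosome, had 99.8, 87.6 and 88.3 CPM in knockout and 118, 144 and 124 CPM in control libraries (log2 fold change −0.49, edgeR adjusted p 0.139, DESeq2 adjusted p 0.0147). Deptor, an inhibitor of mTOR, had 53.6, 23.2 and 32.5 CPM in knockout and 72.6, 84.2 and 81.9 CPM in control libraries (log2 fold change −1.13, edgeR adjusted p 0.152, DESeq2 adjusted p 0.00753). Both genes had every knockout below every control. DESeq2 called 4 of the 29 genes lower, Flcn and Prkag2 being the others, against 5.55% of all genes called by DESeq2 in either direction, and edgeR called 0.

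Among 15 genes of autophagosome fusion with lysosomes, 2 were higher and 1 lower at an unadjusted p under 0.05 in edgeR. Over all genes, 9.32% were higher and 7.09% lower by this measure, and these shares stand beside each such count below. Plekhm1, an adaptor for this fusion, had 61.0, 68.8 and 64.2 CPM in knockout and 50.9, 48.7 and 46.5 CPM in control libraries (log2 fold change 0.41, SE 0.10, edgeR adjusted p 0.135, DESeq2 adjusted p 0.0166). Snap29, a SNARE of the same step, had 46.0, 45.7 and 48.7 CPM in knockout and 57.8, 61.5 and 53.5 CPM in control libraries (log2 fold change −0.30, edgeR adjusted p 0.212). Both genes were without overlap, in opposite directions. Among 11 further receptors, 1 was higher and 2 lower by the same measure. Ncoa4, which carries ferritin to autophagosomes, had 47.0, 94.8 and 97.7 CPM in knockout and 49.0, 37.0 and 43.5 CPM in control libraries, with replicate 1 inside the controls (log2 fold change 0.89, edgeR adjusted p 0.201, DESeq2 adjusted p 0.0492). Bnip3l, a receptor for mitochondria, had 37.4, 26.3 and 29.3 CPM in knockout and 42.1, 40.6 and 41.6 CPM in control libraries, without overlap (log2 fold change −0.42, edgeR adjusted p 0.235). Among 13 further genes of autophagosome formation, 1 was higher and 1 lower at an unadjusted p under 0.05. Atg4c, an LC3 protease, had 26.0, 19.8 and 19.3 CPM in knockout and 28.2, 29.8 and 28.6 CPM in control libraries (log2 fold change −0.42, edgeR adjusted p 0.236), every knockout below every control. Atg16l2, a relative of Atg16l1, had 4.20, 3.35 and 3.76 CPM in knockout and 2.86, 2.58 and 2.34 CPM in control libraries, every knockout above every control (log2 fold change 0.54, SE 0.21, edgeR adjusted p 0.264). Among 10 partners of p62, Prkci was the only one with an unadjusted p under 0.05, and Prkcz, the other atypical kinase, had 65.2, 48.1 and 56.1 CPM in knockout and 66.6, 62.3 and 67.0 CPM in control libraries (log2 fold change −0.21). Of 14 target genes of NRF2, 1 was higher and 1 lower at an unadjusted p under 0.05. Hmox1, the haem-degrading enzyme, had 1.42, 2.88 and 4.77 CPM in knockout and 0.792, 0.792 and 0.795 CPM in control libraries, without overlap (log2 fold change 1.93, edgeR adjusted p 0.135, DESeq2 adjusted p 0.00626). Gclm, a subunit of the enzyme that starts glutathione synthesis, lay the other way, with 101, 102 and 106 CPM in knockout and 125, 113 and 126 CPM in control libraries, also without overlap (log2 fold change −0.24, SE 0.10, edgeR adjusted p 0.277). Hmox1 is also expressed by macrophages, whose markers are given above, and their part in its level was not tested.

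**Figure D4:**
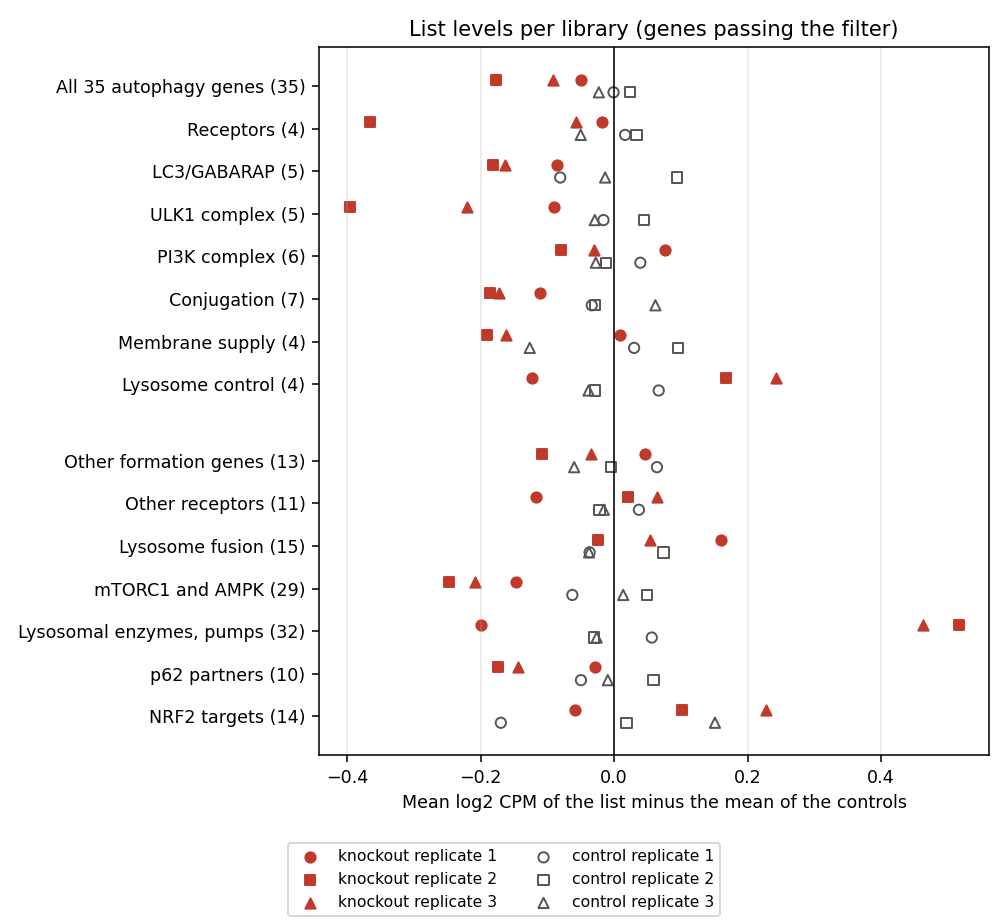
Mean log2 CPM of each gene list in each library minus the mean of the controls, for the 35 autophagy genes, their 7 role classes and 7 further lists; filled symbols are knockout and open symbols control libraries. Knockout replicate 1 sits apart from replicates 2 and 3 for the lysosomal genes, at −0.20 against 0.52 and 0.46.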

How the data were processed

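Per the submitters' processing notes, reads were handled with bcl2fastq 2.17, FastQC, Trim Galore and STAR 2.5.0a on mm10. The labels name both poly-A selection and a ribosomal RNA depletion kit. The counting tool, its use of strand and its annotation were not given in the sources used here. The authors deposited whole-number counts per gene for the 6 libraries, each from a different mouse, and these were the starting point.

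Genes were filtered with filterByExpr (minimum count 10), scaled by TMM and tested with edgeR 4.0.16 (quasi-likelihood F test, genotype as the sole term) in R 4.3.3, with Benjamini-Hochberg adjustment over 15068 genes and a threshold of 0.05. DESeq2 1.42.0, other scalings and filters, sex terms, a replicate block and leaving out each library were the alternatives; 2 were added after the data were seen. List levels are means of log2 CPM with a prior count of 2. The fit was checked on simulated counts with planted changes of known size and no pairing between libraries. All planted changes were larger than any estimate among the 35 genes, so the check does not cover changes as small as theirs. Same-numbered knockout and control libraries deviated together (correlations of 0.117, 0.119 and 0.149 across genes, other pairs −0.143 to 0.00929). This meets the criterion for a pairing, although the labels do not say what they share. The values given come from the fit without the block, and blocked values are given where an edgeR call or a count of edgeR calls changes. Counts at an unadjusted p under 0.05 are without the block. With it, edgeR gave 4 of 32 lysosomal genes instead of 6. It gave 7 of 29 nutrient-sensing genes instead of 8, and 2 of 11 further receptors instead of 3. Over all genes it gave 2500 instead of 2473. No pair of libraries agreed within sampling noise, so none was counted as a duplicate.

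The members, gene lists and tests were chosen with earlier results of these data known. Values in every library are given for genes past the threshold, for those whose libraries do not overlap (up to 12 with the smallest p), for Sqstm1 and for the gene of each class with the highest mean CPM (not adjusted for length), and in other lists for called genes or up to 2 with the smallest p and the 1 with the highest mean CPM; others named were chosen after their values were seen, and 1 gene that the rule names is not reported here. Exon lengths, overlaps and copies come from GENCODE M21, which matched 97.8% of identifiers with their version. Of the 33 autophagy genes with a matching identifier, 5 share over 10% of their exon length with another gene, so their counts are less certain. They are Becn1, Atg9a (31.8%, Gm29253), Gabarapl1 (28.3%), Uvrag (17.6%) and Sqstm1. Besides Gabarapl2, Uvrag also shares sequence of at least 95% identity with transcripts of other genes, each match over 4.1 to 6.7% of its transcript. Atg12 and Atg2a did not match and were not examined for overlaps or copies. Per-gene counts limit precision: the lowest median count among the 35 genes was 41.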

Additional observations from a re-analysis of the deposited data

How the results depend on the processing

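Genes called over the whole table numbered 9 with all libraries (edgeR), against 836 with DESeq2 (542 higher and 294 lower), 16 with library totals, 284 with no filter, 4 with sex from the series text, 11 with sex by Xist and Ddx3y and 0 with the replicate block; leaving out 1 library gave 0 to 2700, with 2700 without knockout replicate 1, 13 without knockout replicate 2 and 0 without knockout replicate 3 or any 1 control. Autophagy genes called stayed at 0 of 35 under every setting run, the replicate block included, except that leaving out 1 library gave 0 to 4, the 4 without knockout replicate 1. The replicate block changed no call among the 35. Of 255 values for the 17 autophagy genes named by rule under 15 alternatives, 250 kept their direction and side of the threshold, Atg12 and Becn1 passed it without knockout replicate 1, and 3 changed sign: Atg9a at −0.062 with library totals and from −0.014 (without knockout replicate 3) to 0.14 when leaving out 1 library, and Lamp1 at −0.016 with library totals. Over all 35 genes, 506 of 525 values kept both, 4 passed the threshold and 15 changed sign, in 9 genes. Genes without overlap numbered 11 with TMM and DESeq2 size factors and 9 with library totals. The difference in mean level, −0.11, was −0.22 with library totals.

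For the other lists, where 0 genes were called, DESeq2 called 1 further receptor, 1 fusion gene, 4 nutrient-sensing genes, 1 lysosomal gene, 1 p62 partner and 1 NRF2 target, and the test without a filter called 1 nutrient-sensing gene and 1 p62 partner. Leaving out 1 library gave 0 to 4 formation genes, 0 to 2 receptors, 0 to 1 fusion gene, 0 to 6 nutrient-sensing genes, 0 to 15 lysosomal genes, 0 to 1 p62 partner and 0 to 2 NRF2 targets, each highest without knockout replicate 1. The cause of these shifts was not tested. Counts of 28 to 67 for Atg10 leave its interval wide.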

Other observations

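Genes with the highest mean CPM (not adjusted for length) of 4 of the other lists are given as values only. Vmp1, a membrane protein of autophagosome formation, had 272, 437 and 523 CPM in knockout and 346, 250 and 277 CPM in control libraries (log2 fold change 0.50, edgeR adjusted p 0.375). As for Lamp1, Lamp2 and Ctsb, knockout replicate 1 was not above the controls and replicates 2 and 3 were above all of them. Tax1bp1, a receptor, had a log2 fold change of 0.28, Nfe2l2, which encodes NRF2, one of −0.06, and Fth1, the ferritin heavy chain, one of 0.39, and none of these passed edgeR's test.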
